A study of Mus musculus with 15 samples.

Results

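The genes of the NF-kB subunits, of their cytoplasmic and nuclear inhibitors and of the deubiquitinase A20 were followed in mouse lung after 6 h of mechanical ventilation with or without hydrogen sulfide. The 10 genes were chosen by name, and each was read from the probe (transcript cluster) that carries its symbol alone. Of these, 9 had such a probe, 1 each, among 19934 genes with a probe of 1 symbol and 28361 probes in all: Rela, Relb, Nfkb2, Nfkbia, Nfkbib, Nfkbie, Nfkbiz, Bcl3 and Tnfaip3. Nfkb1, the gene of p105 and p50, was not analysed here.

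The study asked how inhaled H2S changes gene expression in ventilator-induced lung injury. RNA from the inferior lobe of the right lung was hybridised to Affymetrix whole-transcript arrays, 1 array per mouse, with 5 male C57BL/6N mice of 24 to 26 g body weight per group. In the control group spontaneous breathing of synthetic air went on for 6 h. Air-ventilated mice received synthetic air by ventilator over the same time (tidal volume 12 ml/kg, PEEP 2 cmH2O), and H2S-ventilated mice received the same ventilation with 80 ppm H2S in the synthetic air. Every mouse in the 3 groups, controls included, was anesthetised with ketamine (90 mg/kg) and acepromazine (1 mg/kg) and carried an arterial line and a tracheal tube, so that no group shows the unhandled lung. The study gives body weight in place of age.

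NF-kB is a family of dimeric transcription factors. In resting cells the dimers of RelA or c-Rel with p50 are held in the cytoplasm by IkappaB proteins (Nfkbia, Nfkbib, Nfkbie), and the IkappaB kinase complex releases them by marking the inhibitor for destruction. Dimers of RelB with p52, made by cutting the p100 product of Nfkb2, are released along a slower route. IkappaBzeta (Nfkbiz) and Bcl-3 (Bcl3) act inside the nucleus on p50 or p52 dimers, and A20 (Tnfaip3) removes ubiquitin chains upstream of the kinase. Several of these genes are themselves induced by NF-kB, which closes feedback loops. In lung, stretch and bacterial products are among the stimuli known to engage the pathway.

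Array medians lay between 179 and 187 in intensity in all 15 mice, and arrays of 1 group correlated at 0.984 to 0.994 across probes, which are not independent replicates. The lung identity of the samples was checked on 7 markers, each of which lay far above the array median in every mouse. Sftpc, the surfactant protein C gene of type II cells, read from 13610 to 14825, Ager of type I cells from 5551 to 7614, Scgb1a1 of club cells from 10058 to 13086 and Cdh5 of endothelium from 5739.6 to 6979. The labels carry a running number of unstated meaning, with numbers 1 to 12 in 3 mice of each group and 20 to 28 in 2 mice of each group. The sets differed from each other at 1775 of 28361 probes (limma adjusted p under 0.05). None of the 9 genes described here was among them (limma adjusted p from 0.216 to 0.904). At that share of probes, a count of 0 among 9 genes does not set these genes apart. All 9 read higher in numbers 20 to 28, by 0.0188 (Tnfaip3) to 0.156 (Nfkb2) on the log2 scale.

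Matches to the kappaB consensus, the motif of NF-kB, are shown near the starts of these genes. Whether they serve the feedback loops named above was not tested. RefSeq promoter windows (GRCm38.p6), from 250 bases before to 50 bases after a transcription start, were at hand for 7 of the 10 genes, and the most upstream start in that table was taken. The kappaB consensus, of 10 bases, was searched on both strands and overlapping matches were kept. It was found in the window of 5 of the 7 genes, Nfkb2, Nfkbia, Nfkbie, Bcl3 and Tnfaip3, and in 8.19% of the windows of 27025 genes. The windows of Rela and Nfkbib held no match. Capitals mark the matches in the sequences, which run 5′ to 3′ on the strand of the gene.
Nfkb2, chr19:46304688-46304717, plus strand: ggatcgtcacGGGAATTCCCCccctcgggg
Nfkb2, chr19:46304718-46304736, plus strand: ggccgaaaGGGGCTTTCCc
Nfkbia, chr12:55492648-55492701, minus strand: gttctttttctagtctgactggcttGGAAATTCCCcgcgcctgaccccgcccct
Nfkbie, chr17:45555569-45555699, plus strand: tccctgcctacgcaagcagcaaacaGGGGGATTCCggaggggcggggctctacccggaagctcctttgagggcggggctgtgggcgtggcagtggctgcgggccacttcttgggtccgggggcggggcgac
Bcl3, chr7:19822734-19822763, minus strand: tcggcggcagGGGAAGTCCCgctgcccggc
Tnfaip3, chr10:19015411-19015560, minus strand: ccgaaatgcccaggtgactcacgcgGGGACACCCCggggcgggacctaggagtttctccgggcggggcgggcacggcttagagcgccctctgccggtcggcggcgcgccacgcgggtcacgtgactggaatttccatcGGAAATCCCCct
In the first Nfkb2 stretch the capitals cover 2 overlapping stretches of letters that begin 39 and 38 bases before the start, the first of which reads as a match on both strands, and the second line holds a further match that begins 11 bases before it. The match of Nfkbia begins 29 bases and that of Nfkbie 106 bases before the start, and those of Tnfaip3 begin 125 and 12 bases before it. The match of Bcl3 lies 3 to 12 bases after the start. The Nfkb2 and Bcl3 stretches lie inside the annotated bounds of their genes. A match is a run of letters and says nothing about binding in these lungs. Of the genes with a match, Bcl3 rose in one comparison, Tnfaip3 fell in another, and Nfkb2, Nfkbia and Nfkbie passed no test. Nfkbib, with no match, also rose with H2S against control, while Rela, likewise with no match, passed no test. Tnfaip3 had 2 annotated starts, of which 1 held a match.

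Across the family, few genes passed a test. Relative to control, Tnfaip3 fell with air ventilation, and Bcl3 and Nfkbib rose with H2S ventilation, while the other 6 genes passed no test. All values below are deposited intensities on a linear scale for single mice, and differences are log2 fold changes between group means of log2 intensities, tested with limma over all 28361 probes with Benjamini-Hochberg adjustment. With air against control, 1 of the 9 genes passed an adjusted p under 0.05 as lower and 0 as higher, where 1.89% of all probes passed as lower and 1.56% as higher. With H2S against control, 2 passed as higher and 0 as lower, where 3.92% of all probes were higher and 3.93% lower. With H2S against air, 0 of the 9 passed in either direction, where 0.0705% of all probes were higher and 0.00705% lower. CyberT, a Bayesian t statistic of the kind the study used, also called 0 where limma called 0. At an unadjusted p under 0.05 by limma the counts were 2 of 9 genes with air, 6 of 9 with H2S and 2 of 9 between the ventilated groups, beside 14.0%, 20.7% and 5.68% of all probes. Both comparisons with control use 1 set of 5 control mice and are therefore not independent of each other.

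The study itself required an unadjusted p no higher than 0.005, a false discovery rate no higher than 0.1 and a change of 1.7-fold or more. By these thresholds 1 of the 9 genes passed, Bcl3 with H2S against control. Of all probes 0.959% passed with air, 1.45% with H2S and 0.0599% when the ventilated groups were compared. These shares rest on limma. With CyberT, the test of the study, 341, 506 and 45 probes passed where limma passed 272, 410 and 17. Groups that did not overlap in a single mouse were found for 1 gene with air against control (Tnfaip3; 5.55% of all probes), for 2 with H2S against control (Bcl3 and Nfkbib; 8.2% of all probes) and for 0 with H2S against air (1.2% of all probes). The median log2 fold change of the 9 genes was -0.0027 with air, 0.12 with H2S and 0.12 with H2S against air, beside 0.0083, -0.0037 and -0.0059 over all genes.

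**Figure D1:**
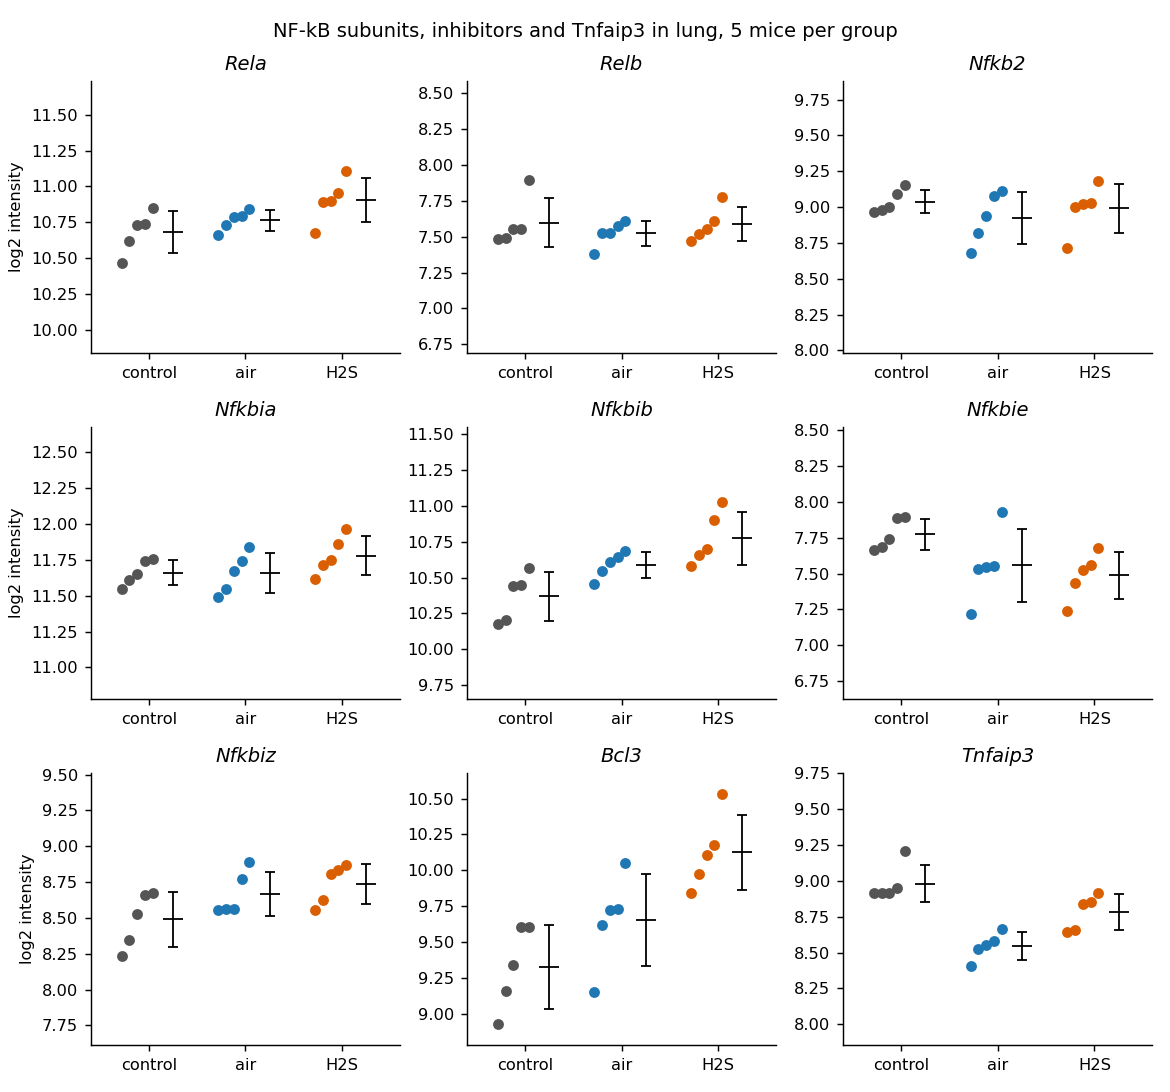
Log2 intensity (y axis) of each of the 9 genes by group (x axis), 1 point per mouse, with the group mean ± SD (n = 5) as a bar beside the points; every panel spans the same log2 range, and points of a group are spread sideways in order of value. The air-ventilated points of Tnfaip3 all lie under the control points, and the H2S-ventilated points of Bcl3 and Nfkbib all lie over them.

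Among the nuclear regulators, Bcl3, a coactivator or repressor on p50 and p52 dimers, had the largest difference of the 9 genes, reached with H2S against control. Its intensity was 488, 571, 647, 778 and 778 in control mice. In air-ventilated mice it was 569.8, 784, 843, 850.5 and 1059, and in H2S-ventilated mice 919, 1004, 1100.2, 1157 and 1482. Every H2S-ventilated mouse lay above every control mouse, and 4 of the 5 air-ventilated mice did so, the fifth, mouse 12_10, being lower than 4 of the 5 controls. Relative to control, Bcl3 rose 1.74-fold with H2S (log2 fold change 0.80, SE 0.17, limma adjusted p = 0.00755). With air the difference was 0.33 (95% interval -0.03 to 0.69, adjusted p = 0.424), and of H2S against air it was 0.47 (0.11 to 0.83, unadjusted p = 0.0130, adjusted p = 0.621), which did not pass adjustment over all probes. Bcl3 also varied most within groups among the 9 genes, with a pooled SD of 0.29 on the log2 scale. Within the label number sets the H2S difference was 1.09 among mice 1 to 12 (adjusted p = 0.0249) and 0.37 among mice 20 to 28 (adjusted p = 0.386), where 2 mice stood in each group.

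Nfkbiz, the gene of IkappaBzeta, which is induced by Toll-like receptor and interleukin-1 signals and helps p50 to activate secondary response genes, read 302, 326, 369, 404 and 408 in control mice. It read 376, 377, 377, 436 and 475 with air and 376, 394, 447, 457 and 468 with H2S. Of the H2S-ventilated mice, 3 lay above all controls and the groups overlapped. Its difference from control was 0.18 with air (95% interval -0.04 to 0.40, limma adjusted p = 0.513) and 0.25 with H2S (0.03 to 0.47, adjusted p = 0.172), and it did not pass the test in either.

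Tnfaip3 encodes A20, a ubiquitin-editing enzyme that shuts off signalling from tumour necrosis factor and Toll-like receptors. Its intensity was 482, 483, 483, 494 and 591 in control mice, 339, 368, 375, 383 and 405 with air ventilation, and 401, 403, 458, 462 and 484 with H2S ventilation. All air-ventilated mice lay below all control mice, with the highest control, mouse 6_5, standing well apart from the other 4. The H2S-ventilated mice lay between, overlapping both groups. Relative to control, Tnfaip3 fell by 0.44 on the log2 scale with air (SE 0.08, limma adjusted p = 0.00749), which is 0.74-fold, and without mouse 6_5 it fell by 0.38 (adjusted p = 0.0213). With H2S the difference was -0.20 (95% interval -0.37 to -0.03, adjusted p = 0.166). Between the ventilated groups Tnfaip3 was 0.24 higher with H2S (0.06 to 0.41, unadjusted p = 0.0106), a difference that did not pass adjustment (adjusted p = 0.586). Within the number sets the difference with air was -0.52 among mice 1 to 12 (adjusted p = 0.0549) and -0.31 among mice 20 to 28 (adjusted p = 0.785), so that neither set alone passed.

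Of the cytoplasmic inhibitors, Nfkbib alone passed the test, while Nfkbia and Nfkbie did not. Nfkbib, the gene of IkappaBbeta, an inhibitor that is resynthesised slowly after stimulation, read 1157, 1179.6, 1392, 1399 and 1519.8 in control mice. It read 1401, 1495, 1563, 1603 and 1649 with air ventilation and 1531, 1611, 1664, 1913 and 2086 with H2S ventilation. The lowest H2S-ventilated mouse lay just above the highest control, and 3 of the 5 air-ventilated mice lay above all controls. With H2S Nfkbib rose 1.32-fold (log2 fold change 0.40, SE 0.10, limma adjusted p = 0.0188). The call was lost in 3 of the 15 fits without 1 mouse. It ended without H2S-ventilated mouse 27_28 (0.37, adjusted p = 0.0531), without control mouse 7_9 (0.36, adjusted p = 0.0574) and without control mouse 6_5 (0.36, adjusted p = 0.0503), and also when the air-ventilated mice were left out of the fit (adjusted p = 0.0512). Between group medians the difference was 0.26 in place of 0.40. With air the difference was 0.22 (95% interval 0.01 to 0.43, adjusted p = 0.320), and of H2S against air it was 0.18 (-0.03 to 0.39, adjusted p = 0.929). Within the number sets the H2S difference was 0.49 among mice 1 to 12 (adjusted p = 0.0792) and 0.27 among mice 20 to 28 (adjusted p = 0.478).

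Nfkbia, the gene of IkappaBalpha, the rapidly induced inhibitor that ends a pulse of NF-kB activity, passed no test. It read 2991, 3126, 3222, 3424 and 3456 in control mice, 2884, 2999, 3257, 3421 and 3665 with air, and 3144, 3355, 3441, 3711.5 and 3995 with H2S. The control range lay within the air range, and 2 H2S-ventilated mice lay above both. Its difference from control was -0.0027 with air (95% interval -0.18 to 0.18, limma adjusted p = 0.998) and 0.12 with H2S (-0.06 to 0.30, adjusted p = 0.499). The intervals leave room for changes between 0.882-fold and 1.13-fold with air and between 0.959-fold and 1.23-fold with H2S.

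Nfkbie, the gene of IkappaBepsilon, was the inhibitor with lower values in ventilated lungs. It read 203, 206, 215, 237 and 238 in control mice, 149, 185, 187, 188 and 244 with air, and 151, 173, 184, 189 and 205 with H2S. Below the lowest control lay 4 of the 5 mice of each ventilated group, but air-ventilated mouse 34_22 was higher than every control. The difference was -0.22 with air (95% interval -0.46 to 0.02, limma adjusted p = 0.435) and -0.29 with H2S (-0.53 to -0.05, adjusted p = 0.150), and neither passed.

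The 3 subunits passed no test in any comparison. Rela, the gene of the p65 subunit that carries the transactivation domain of the classical dimer, read 1412, 1574, 1702, 1707 and 1848 in control mice. It read 1617, 1697, 1769, 1773 and 1839 with air and 1633, 1903, 1906, 1982 and 2207 with H2S. Above all controls lay 4 of the 5 H2S-ventilated mice, the other being mouse 9_12. Its difference from control was 0.22 with H2S (95% interval 0.04 to 0.41, limma adjusted p = 0.145) and 0.08 with air (-0.10 to 0.27, adjusted p = 0.814). With arrays weighted by their quality Rela passed with H2S (0.26, adjusted p = 0.0415).

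Relb, the subunit of the slower route, read 179, 180.2, 188, 188 and 238 in control mice, 166, 184, 184, 191 and 195.5 with air, and 177, 183, 188, 196 and 219.7 with H2S. The 3 ranges overlapped, and control mouse 12_21 was the highest of all. Its difference from control was -0.07 with air (95% interval -0.26 to 0.11, limma adjusted p = 0.848) and -0.0097 with H2S (-0.20 to 0.18, adjusted p = 0.9747). Nfkb2, the gene of p100 and p52, read 501, 504, 511, 547 and 569.7 in control mice. With air it read 409, 452, 490.4, 539 and 554, and with H2S 421, 513, 520.2, 523 and 581. Air-ventilated mice spread to lower values than control mice, with 3 of 5 below all controls, while 4 of the 5 H2S-ventilated mice lay in or above the control range. Its difference from control was -0.11 with air (-0.32 to 0.09, adjusted p = 0.734) and -0.05 with H2S (-0.25 to 0.16, adjusted p = 0.861).

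**Figure D2:**
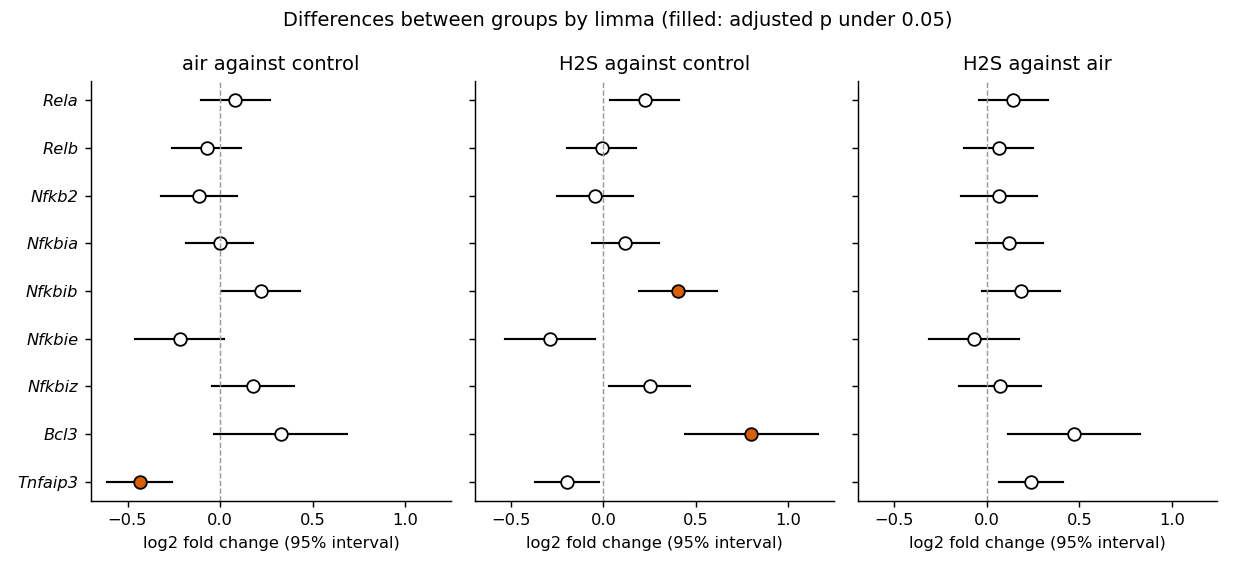
Log2 fold change (x axis) of each gene in each of the 3 comparisons, with its 95% interval from limma; filled points passed an adjusted p under 0.05. Tnfaip3 passed with air against control, Bcl3 and Nfkbib with H2S against control, and no gene with H2S against air, where 8 of the 9 points lay above 0.

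Between the ventilated groups 8 of the 9 genes were higher with H2S by sign and 1, Nfkbie, was lower, but none passed the test after adjustment. The differences other than those of Bcl3, Tnfaip3 and Nfkbib ran from -0.07 (Nfkbie, 95% interval -0.31 to 0.17) to 0.14 (Rela, -0.04 to 0.33). Those of Nfkbia (0.12), Nfkbiz (0.07), Nfkb2 (0.07) and Relb (0.06) lay between. All 9 genes were measured in the same 10 ventilated mice, and the signs are not independent of each other.

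Several of the 9 genes were low or high in the same mice. In the control group mouse 7_9 was the lowest for 7 of the 9 genes, in the air-ventilated group mouse 12_10 for 6, and in the H2S-ventilated group mouse 9_12 for 7. Mice 7_9, 12_10 and 9_12 carry the running numbers 9, 10 and 12, which fall in 1 run of 4 numbers. The part of that run in their low values was not tested. Mouse 4_8 was the highest of the H2S-ventilated group for 6 of the 9 genes, Bcl3 (1482), Nfkbib (2086) and Rela (2207) among them. Their array medians of 184.8 (7_9), 179 (12_10), 179.8 (9_12) and 184.6 (4_8) moved with these values in part. Those of 12_10 and 9_12 were the lowest of their groups and that of 4_8 the highest of its group, while that of 7_9 was the middle of the 5 controls. After centring each array on its median, Bcl3 rose by 0.83 with H2S (adjusted p = 0.00474), Nfkbib rose by 0.43 (adjusted p = 0.0091015) and Tnfaip3 fell by 0.41 with air (adjusted p = 0.00926). Without mouse 4_8 Bcl3 rose by 0.70 with H2S (adjusted p = 0.0216) and Nfkbib by 0.34 (adjusted p = 0.0469).

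**Figure D3:**
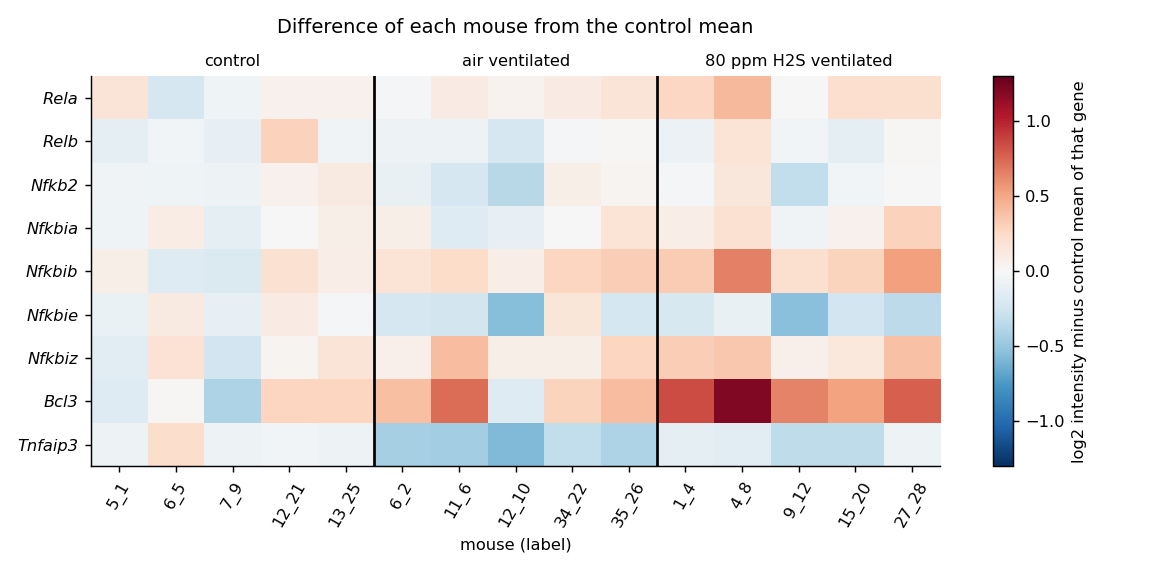
Log2 intensity of each gene (rows) in each mouse (columns, by label, ordered by running number within groups), as the difference from the mean of the 5 control mice for that gene. Bcl3 is above the control mean in all 5 H2S-ventilated mice and highest in mouse 4_8, and Tnfaip3 is below it in all 10 ventilated mice.

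The genes most like the 3 that passed were found by Pearson's r of log2 values over the 15 arrays among 19934 genes, as a description. The arrays share the 3 groups and their normalization, so r over the deviations from the group means stands beside it. Nearest to Bcl3 stood Plaur, the urokinase receptor (r = 0.946; deviations 0.866), Socs3, a feedback inhibitor of cytokine signalling (0.945; 0.856), and Tgm1, a transglutaminase (0.937; 0.827). Nearest to Nfkbib stood Fgfr3, a fibroblast growth factor receptor (0.953; 0.890), Rassf1 (0.949; 0.874) and Got1, an aspartate aminotransferase (0.949; 0.888). Nearest to Tnfaip3 stood Vegfa, the vascular endothelial growth factor (0.909; 0.751), Lrrc8d, a subunit of volume-regulated anion channels (0.908; 0.668), and Vcam1, an endothelial adhesion molecule (0.906; 0.665). With H2S against control, Plaur, Socs3 and Tgm1 rose by 0.78, 1.13 and 0.90 (limma adjusted p = 0.00119, 0.00151 and 0.00287). With air Vegfa, Lrrc8d and Vcam1 differed from control by -0.29, -0.36 and -0.38 (adjusted p = 0.0399, 0.0124 and 0.0124). As these genes were picked by likeness over the same arrays, their differences follow in part from the choice and are no separate evidence.

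Upstream of the subunits, ligands and receptors that signal to NF-kB moved in both directions. Of 23 measured, 1 was higher and 4 lower with air, beside 1.56% and 1.89% of all probes, and 18 did not pass. With H2S 3 were higher and 4 lower, beside 3.92% and 3.93% of all probes, and 16 did not pass. At an unadjusted p under 0.05 by limma 11 of the 23 passed with air, 11 with H2S and 1 between the ventilated groups, beside 14.0%, 20.7% and 5.68% of all probes. The median log2 fold change was -0.04 with air and 0.08 with H2S, beside 0.0083 and -0.0037 over all genes. The receptor Tnfrsf12a, which binds the ligand TWEAK, rose by 1.11 with H2S (SE 0.19, limma adjusted p = 0.00226), with 0.66 for air (adjusted p = 0.0763). The ligand Tnfsf14 (LIGHT) rose by 0.68 with air (adjusted p = 0.0265) and by 0.82 with H2S (adjusted p = 0.00501). Among the genes that fell were 2 of B cell biology, Tnfrsf13c, the receptor of the survival factor BAFF (-0.79 with air, adjusted p = 0.01995; -0.86 with H2S, adjusted p = 0.00675), and Tnfsf13b, the gene of BAFF itself (-0.46, adjusted p = 0.0144; -0.54, adjusted p = 0.00322). Tlr9, a receptor of unmethylated DNA, fell by 0.77 with air (adjusted p = 0.0184) and by 0.79 with H2S (adjusted p = 0.008801). The remaining calls, Cd40, a receptor of B cells and antigen-presenting cells (-0.34 with air, -0.33 with H2S), and Tlr4, the endotoxin receptor (0.39 with H2S), were named after their values were seen. The air calls of Tnfsf14, Tnfrsf13c and Tlr9 ended when any 1 of 5, 4 and 3 mice, respectively, was left out. The cytokine genes Tnf (-0.03 with air, -0.14 with H2S) and Il1b (0.17 and 0.09) did not pass and are likewise named after their values were seen.

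Of the kinase complex and its adaptors, 24 genes were measured. With air 0 passed, beside 1.56% of all probes higher and 1.89% lower. With H2S 3 were higher and 2 lower, beside 3.92% and 3.93% of all probes, and 19 did not pass. At an unadjusted p under 0.05 by limma the list held 4 genes with air, 13 with H2S and 1 between the ventilated groups, beside 14.0%, 20.7% and 5.68% of all probes. Map3k8, a kinase bound by p105, rose by 0.32 (SE 0.07, limma adjusted p = 0.0123) and Bcl10, an adaptor of antigen receptor signalling, by 0.37 (SE 0.09, adjusted p = 0.0193). The adaptor Traf5 fell by 0.54 (SE 0.11, adjusted p = 0.00791), and Rbck1, a subunit of the linear ubiquitin ligase, fell by 0.33 (SE 0.08, adjusted p = 0.01299). The third gene that was higher, Ikbkg, the regulatory subunit of the kinase, is named after its value was seen (0.23, adjusted p = 0.0475). The call of Bcl10 ended when any 1 of 4 mice was left out. In fits without 1 mouse the count of kinase complex and adaptor genes higher with H2S ran from 1 to 3. The other family genes, Rel (-0.32 with air, adjusted p = 0.0918; -0.21 with H2S, adjusted p = 0.229) and Nfkbid (-0.19, adjusted p = 0.534; -0.18, adjusted p = 0.430), did not pass.

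Of 21 genes of deubiquitinases and other brakes on the pathway, 1 was higher with air, Tsc22d3, a glucocorticoid-induced protein that binds p65 (0.35, limma adjusted p = 0.035999, lost when any 1 of 9 mice was left out). In H2S-ventilated lungs 4 of the 21 rose and 1 fell, beside 3.92% and 3.93% of all probes, and 16 did not pass. Socs3 rose by 1.13 (SE 0.18, adjusted p = 0.00151) and Tsc22d3 by 0.44 (SE 0.09, adjusted p = 0.00569). Tnip2, which binds A20 (0.30, adjusted p = 0.0297), and Zc3h12a, the gene of the RNase regnase-1 (0.29, adjusted p = 0.0429), passed but lost their calls when any 1 of 7 and 10 mice, respectively, was left out. The gene that was lower, Nr3c1, the glucocorticoid receptor, is named after its value was seen (-0.31, adjusted p = 0.0479). In fits without 1 mouse the count of lower genes ran from 0 to 2, so that this call was not kept in all of them. With air 0 of the 21 were lower, where 1.56% of all probes were higher and 1.89% lower. At an unadjusted p under 0.05 by limma 7 of the 21 passed with air, 9 with H2S and 2 between the ventilated groups, beside 14.0%, 20.7% and 5.68% of all probes.

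Of 39 genes known as targets of NF-kB, 4 were higher and 2 lower with air and 33 did not pass. With H2S 9 were higher, 1 was lower and 29 did not pass. Between the ventilated groups 1 was higher with H2S, and 38 did not pass. Of all probes 1.56% were higher and 1.89% lower with air. The shares were 3.92% and 3.93% in H2S-ventilated lungs, and 0.0705% and 0.00705% between the ventilated groups. At an unadjusted p under 0.05 by limma 12 of the 39 targets passed with air, 16 with H2S and 13 between the ventilated groups, beside 14.0%, 20.7% and 5.68% of all probes. Ptgs2, the inducible cyclooxygenase, rose by 1.96 with H2S against control (SE 0.18, limma adjusted p = 3.59e-05) and by 1.65 against air (adjusted p = 0.000638), with 0.31 for air against control (adjusted p = 0.5302). F3, the gene of tissue factor, rose by 0.82 with air (adjusted p = 0.00245) and by 1.49 with H2S (adjusted p = 7.12e-06), the difference between the 2 being 0.67 (adjusted p = 0.0542). Bcl2l1, a survival factor, rose by 0.53 and 0.57 (adjusted p = 0.00522 and 0.00147), and Saa3, an acute phase protein, rose by 1.23 with H2S (adjusted p = 0.00634). The chemokine gene Cxcl12 fell by 0.90 with air (adjusted p = 0.00402) and by 0.68 with H2S (adjusted p = 0.00884). The other gene that fell with air, Vcam1, was already described beside Tnfaip3. The remaining genes higher with air also rose with H2S. Lcn2, an iron-binding protein, rose by 0.38 with air (adjusted p = 0.0411, lost when any 1 of 11 mice was left out) and by 0.57 with H2S (adjusted p = 0.00205, kept in all 15 such fits). Gadd45b, a stress sensor named after its value was seen, rose by 0.47 and 0.42 (adjusted p = 0.0115 and 0.0139). The median of the list was 0.02 with air, 0.08 with H2S and 0.16 between the ventilated groups, beside 0.0083, -0.0037 and -0.0059 over all genes.

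**Figure D4:**
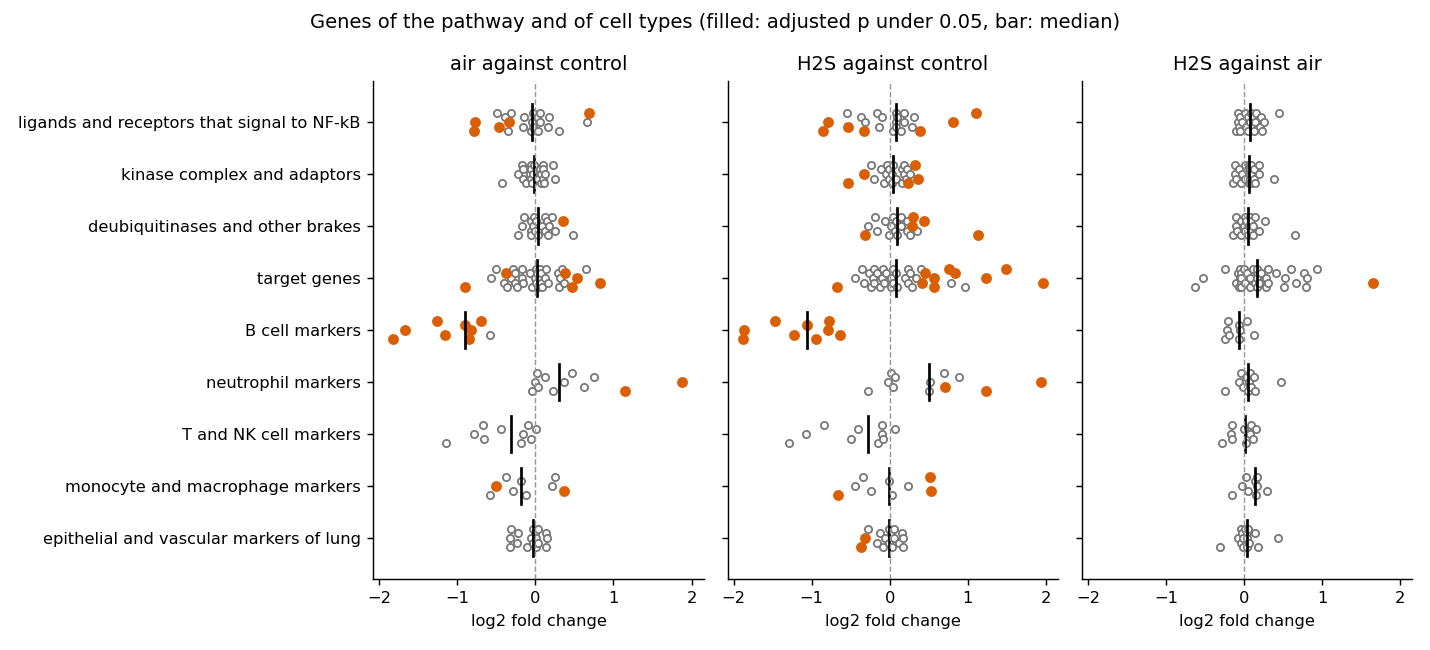
Log2 fold change (x axis) of every measured gene of 4 pathway lists and 5 cell type lists in the 3 comparisons; each point is a gene, filled where the limma adjusted p was under 0.05, and the bar is the median of the list. B cell markers lay below 0 in both comparisons with control, and Ptgs2 is the filled point between H2S and air.

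Some cell type markers also differed from control. Of all probes 1.56% were higher and 1.89% lower with air, and 3.92% and 3.93% with H2S. Of the B cell markers measured, 8 of 9 fell with air and 9 of 9 with H2S, Ms4a1 (CD20) with log2 fold changes of -1.82 and -1.88 (limma adjusted p = 0.00684 and 0.00267). The summed intensity of the list ran from 4329 to 7218 in control mice, from 1819 to 4192 with air and from 1707 to 3244 with H2S. Of 12 neutrophil markers, 2 were higher with air and 3 with H2S, Mmp8 by 1.88 and 1.94 (adjusted p = 0.00175 and 0.000452) and Retnlg by 1.15 and 1.23 (adjusted p = 0.00267 and 0.000618). The other 10 with air and 9 with H2S did not pass, and the lowest difference with H2S was -0.28. The summed intensity of all 12 ran from 6162 to 11374 in control mice, from 10794 to 16006 with air and from 10047 to 18798.5 with H2S. Of 10 T and NK cell markers 0 passed, and 2 had an unadjusted p under 0.05 in each comparison with control, beside 14.0% and 20.7% of all probes. Their log2 fold changes ran from -1.14 to 0.0056 with air (median -0.31) and from -1.29 to 0.066 with H2S (median -0.28). No defining marker of these lists was at 0 in any mouse, but dim genes such as Il6 (lowest 8) also read above 0 on these arrays. The values therefore do not show whether a cell type was present. The part of these cell types in the levels of Tnfaip3, Bcl3 and Nfkbib was not tested, and in RNA of a whole lobe fewer cells of a type and less RNA per cell cannot be told apart. In the difference between H2S and air, 0 of the 9 B cell and 0 of the 12 neutrophil markers passed, and 1 B cell and 0 neutrophil markers had an unadjusted p under 0.05. Of all probes 0.0705% passed as higher and 0.00705% as lower there, and 5.68% had such an unadjusted p.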

How the data were processed

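The authors processed the array images in Genedata Expressionist Refiner, where background was removed by GC content with the help of anti-genomic probes, arrays were brought to equal quantiles and RMA gave 1 value per transcript of Affymetrix annotation NA32. The deposited intensities are linear. They were taken to log2 here, where the rule for the members had called them log2. Quantile normalization is meant to remove differences of overall level between arrays, but medians of the deposited values still ran from 179 to 187. Symbols came from the platform annotation (21780 probes with 1, 1617 with several, 4964 unnamed).

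The 15 arrays, all columns used, were fitted with limma 3.58.1 (R 4.3.3; pandas 2.3.3, matplotlib 3.10.9), with no covariate and 3 contrasts, and the fit was tested on simulated data. Replicates are separate mice, and the number of arrays limits the precision. The members and lists were chosen with earlier results of these data known. All members are named. List genes were eligible for naming if they passed the thresholds of the study or were among the 4 with the smallest adjusted p in their list, and only some are given. Gene lists were read from 1 probe per gene, that with the highest mean. Genes with no probe of their own symbol, such as Chuk and Ripk1, were not analysed here. Mice of different groups in the same run of 4 label numbers correlated at 0.179 on average (-0.179 to 0.358), as deviations from group means. Those in different runs correlated at -0.0374. Runs 1 to 4, 5 to 8, 9 to 12 and 25 to 28 each held 1 mouse per group. The meaning of the numbers is not stated, and the main fit did not treat them as pairing. An alternative fit took the runs as a random block. Alternatives were CyberT (confidence 15, window 101), other fits, filters and normalizations, number sets and leaving out each mouse. Spontaneous breathing of H2S was not analysed here.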

Additional observations from a re-analysis of the deposited data

Results flagged for a closer look

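Among the 27 sets of 5 values (9 genes in 3 groups), 2 held a mouse far from the other 4 by Dixon's ratio of gap to range, where 1 in 20 is flagged by chance. Tnfaip3 of control mouse 6_5 (591, the next control 494) gave a ratio of 0.881 against a critical value of 0.71. Relb of control mouse 12_21 (238, the next control 188) gave a ratio of 0.824. Without mouse 12_21 the difference of Relb from control was 0.0019 with air and 0.07 with H2S, and neither passed.

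Ptgs2 differed between the effects of the 2 gases, being 1.65 higher on the log2 scale with H2S than with air ventilation (limma adjusted p = 0.000638). Of the 9 genes and the listed pathway and cell type genes it alone passed in that comparison.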

How the results depend on the processing

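The fall of Tnfaip3 with air and the rise of Bcl3 with H2S passed in all fits that left out 1 mouse, at adjusted p up to 0.0253 and 0.0247. The count of genes lower with air was 0 among mice 1 to 12, 0 among mice 20 to 28 and 0 at the thresholds of the study, instead of 1. The count of genes higher with H2S, 2, was 1 with the 2 groups compared alone, 1 among mice 1 to 12, 0 among mice 20 to 28, 1 at the thresholds of the study and 1 to 2 without 1 mouse. Mice 20 to 28 number 2 per group, and of all probes 0 passed with air and 2 with H2S there. Array weights added Rela, for 3. The other counts of the 9 genes stayed at 0. The replicate numbers are in accession order and pair no mice. With runs of 4 label numbers as a random replicate block (correlation 0.151) no call of the 9 genes changed, Bcl3 with H2S being 0.82.

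As differences of group medians, with no test, Tnfaip3 with H2S against control was -0.0786 in place of -0.20 and Nfkbiz between H2S and air 0.245 in place of 0.07, both moves larger than the SD within groups.

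Signs turned for values near 0 that had passed no test. Relb with H2S against control was 0.0163 after a second quantile normalization, 0.02002 after median centring, 0.0036 with the random replicate block and 0.11 among mice 1 to 12. Nfkbia with air was 0.0068 with array weights, 0.0191 after median centring and 0.0568 among mice 20 to 28. Between H2S and air, mice 20 to 28 gave -0.0785 for Nfkb2 and -0.0526 for Relb, and mice 1 to 12 gave 0.0574 for Nfkbie. Without 1 mouse, Nfkb2 with H2S ran from -0.0957 to 0.0207, Relb with air from -0.10 to 0.0019, Relb with H2S from -0.0578 to 0.0652, Nfkbia with air from -0.047983 to 0.0385 and Nfkbie between H2S and air from -0.154 to 0.0247. Among the pathway and cell type lists, 185 counts under an alternative differed by over 1.5 times from the main count and 1495 did not. Of the values of named list genes 187 lost their call and 1493 kept their direction and call or moved by less than the spread between mice. The cause of these changes was not tested.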

Other observations

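Of 9 monocyte and macrophage markers, 1 was higher and 1 lower with air, and 2 were higher and 1 lower with H2S, with list medians of -0.19 and -0.01 on the log2 scale. Of all probes 1.56% were higher and 1.89% lower with air, and 3.92% and 3.93% with H2S. Mrc1, the mannose receptor of alveolar macrophages, rose by 0.37 with air and by 0.53 with H2S (limma adjusted p = 0.0108 and 0.000593). Marco, a scavenger receptor of macrophages, rose by 0.52 with H2S (adjusted p = 0.030016), with 0.22 for air (adjusted p = 0.576), and its call ended when any 1 of 6 mice was left out. Cx3cr1, a receptor of patrolling monocytes, had log2 fold changes of -0.50 with air (adjusted p = 0.0420096, lost when any 1 of 11 mice was left out) and -0.66 with H2S (adjusted p = 0.00474).

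Of 17 epithelial and vascular markers, 0 passed with air and 2 were lower with H2S, where 3.93% of all probes were lower. At an unadjusted p under 0.05 by limma the list held 4 with air, 4 with H2S and 3 between the ventilated groups. The shares of all probes were 14.0%, 20.7% and 5.68%. The 2 were Abca3, the lipid transporter of type II cells (-0.31, adjusted p = 0.0285), and Tie1, an endothelial receptor (-0.37, adjusted p = 0.0275). Their calls each ended when any 1 of 7 mice was left out.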
